A study of Mus musculus with 9 samples.

Results

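The Flag immunoprecipitation of mouse MLL-ENL leukemia cells that carry tagged Hhex gave 429 summits, and 205 of them had no counterpart in cells without the tag. These rescue-only summits are the subject here. Members were chosen by position in the deposited summit lists: a rescue summit with no floxed or deleted summit on its chromosome within 250 bp. The 3 lists hold 1124 summits in all. Because the lists themselves picked the members, their number, scores and distances are descriptions and carry no test.

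MLL-ENL is the product of a translocation that joins Kmt2a to Mllt1, and it drives myeloid leukemia in mice. Chromatin from 3 genotypes was precipitated with antibodies to H3K27me3 and H3K4me3 and with M2 beads that bind the Flag tag, giving 9 libraries, 1 per group. The labels call the genotypes fl (floxed here), ΔERT2 (deleted) and ΔERT2 + Hhex-F (rescue). All are labelled MLL-ENL leukemia, and the rescue cells share the ΔERT2 label with the deleted cells. The floxed gene, the number of clones and the animal source are not stated by the labels. With single libraries, no difference between genotypes has a replicate check.

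Hhex is a homeodomain transcription factor of early haematopoiesis, known mainly as a repressor. A summit is the base at which a peak caller places the height of an enriched stretch. In lines whose labels name no tagged protein, the M2 beads have no labelled target, so the floxed and deleted lists show what the procedure calls without one. H3K27me3 is laid down by Polycomb repressive complex 2 over silent genes, and H3K4me3 marks active promoters.

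Of the 196 rescue-only summits on chromosomes with listed starts, 1 fell in a promoter window of the RefSeq table (GRCm38.p6, 250 bases before to 50 after a listed start). That window belongs to Gm43305, a long non-coding RNA gene. It is printed 5′ to 3′ together with those of Osbpl6 and Prpf6, the genes holding a rescue-only summit at which H3K4me3 was called different. Capitals mark matches to the short motifs searched, on either strand.
Gm43305 (chr14:54297439-54297738, minus strand): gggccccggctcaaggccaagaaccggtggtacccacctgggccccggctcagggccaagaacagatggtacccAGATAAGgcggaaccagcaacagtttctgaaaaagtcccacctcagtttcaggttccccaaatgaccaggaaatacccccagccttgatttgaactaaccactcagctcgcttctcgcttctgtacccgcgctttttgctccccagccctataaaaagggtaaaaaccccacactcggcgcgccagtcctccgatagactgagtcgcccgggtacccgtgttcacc
Osbpl6 (chr2:76406258-76406557, plus strand): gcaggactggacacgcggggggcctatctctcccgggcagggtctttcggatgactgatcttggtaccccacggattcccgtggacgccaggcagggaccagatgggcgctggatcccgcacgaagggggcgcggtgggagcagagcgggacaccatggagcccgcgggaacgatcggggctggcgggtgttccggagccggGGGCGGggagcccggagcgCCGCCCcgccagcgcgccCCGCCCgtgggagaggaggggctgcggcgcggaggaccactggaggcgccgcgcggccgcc
Prpf6 (chr2:181601069-181601368, plus strand): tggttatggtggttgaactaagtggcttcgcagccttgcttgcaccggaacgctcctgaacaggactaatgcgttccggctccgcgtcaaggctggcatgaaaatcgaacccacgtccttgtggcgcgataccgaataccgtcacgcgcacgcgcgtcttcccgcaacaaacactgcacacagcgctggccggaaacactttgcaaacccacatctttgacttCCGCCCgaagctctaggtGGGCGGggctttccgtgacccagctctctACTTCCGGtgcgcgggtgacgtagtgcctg

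In the Gm43305 window the summit is base 292, 41 bases past the listed start, and its score was 5.50. The window holds 1 match to the GATA-type motif AGATAAG and none to the 3 homeodomain-type motifs given next. The Osbpl6 window has 3 GC boxes (GGGCGG) and a summit 899 bp past the start. Prpf6 has 2 GC boxes and 1 ETS-type CCGGAAGT, and its summit lies 39320 bp past the start.

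The homeodomain-type motifs ATTAA, with CAATTA as 1 longer site and TAATTA as another, were looked for on both strands in the promoter windows of all genes holding a rescue-only summit. Of 61 such genes, 51 had a window, 70 windows in all. ATTAA was present in 15 of the 70 (21.4%, exact 95% interval 12.5% to 32.9%) and in 27.1% of all 32851 windows. CAATTA was in 2 (2.86%, 0.348% to 9.94%) against 8.0%. TAATTA was in 0, which allows a share of up to 5.13%, against 5.29%. GGGCGG was in 29 windows (41.4%, 29.8% to 53.8%) against 35.7% of all. The AP-1 motif TGACTCA was in 6 (8.57%, 3.21% to 17.7%) against 5.20%. The intervals treat the 70 windows as independent, though they come from 51 genes, so they are too narrow. The windows of the holding genes had a median GC content of 57.0% and 12 CG pairs, against 52.7% and 7 over all windows, and the part of base composition in these shares was not tested. The homeodomain-type motifs can overlap in the same bases. These windows lie at gene starts, mostly far from the summits, and the sequence under the other summits was not analysed here.

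Most rescue-only summits had low scores for their own list. The score is the authors' −log10 value from the peak caller, and whether it is a p or a q value is not stated in the files. The median was 4.5 (interquartile range 3.55 to 6.17) in the rescue-only summits, and 7.59 (5.81 to 11.4) in the 224 other rescue summits. The rescue-only scores took 47 distinct values, and 63 of the 205 (30.7%) shared the single value 3.55. Ties of this kind were rarer in the other rescue summits, where the most frequent value covered 12 of 224 (5.36%). Of the rescue summits at or under the list's median score, 68.7% were rescue-only, against 23.0% of those above it.

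Only 7 rescue-only summits scored 10 or more, against 71 of the other rescue summits. Snx6, a sorting nexin gene of endosomal transport, held one of 35.7 at chr12:54774995, which was 20667 bp past its listed start. The non-coding gene 4930578N18Rik held one of 33.8 at chr16:76143297, 20684 bp past its start. A further 3 lay outside gene spans. They were 27.2 at chr5:122193669, 2100 bp before the start of Gm52787, 21.9 at chr1:171481685, 17092 bp from F11r, which encodes a junctional adhesion molecule, and 17.2 at chr12:20699564, with the nearest gene 28873 bp away.

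After these 7 the scores dropped to 9.96, in Cntnap5b, which encodes a contactin-associated cell-surface protein. Next came 9.69 in each of 4 places. One was in Lrrc4c, which encodes the synaptic protein netrin-G ligand 1, and one in Skint5, a member of a butyrophilin-like family. Another was in Pik3c2a, a lipid kinase gene, 1914 bp before the start of Gm40453, and the last was intergenic on chromosome 3. Of the 20 highest rescue-only scores, 8 fell inside gene spans. A further 2 lay outside genes but within 10 kb of one, Gm52787 and the olfactory receptor gene Olfr936, and 10 lay farther away.

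**Figure D1:**
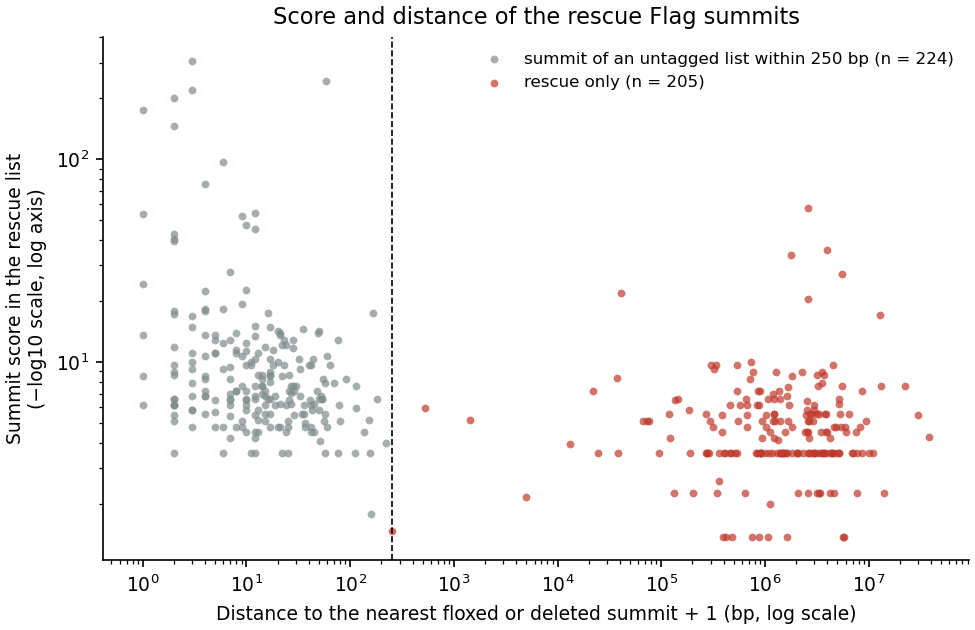
Score of each of the 429 rescue summits (vertical, log axis) against its distance to the nearest floxed or deleted summit plus 1 bp (horizontal, log axis), with the 250 bp limit dashed. Other rescue summits (grey) lie at 219 bp or less, and most rescue-only summits (red) lie beyond 100000 bp, with 7 scores of 10 or more.

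The distance to an untagged summit, on which the members were selected, is given as a description. The median distance to the nearest untagged summit was 1609195 bp for rescue-only summits and 12 bp for the other rescue summits. Just outside the selection were summits with an untagged neighbour at 219, 182, 167, 159 and 154 bp, scoring 3.97, 6.57, 17.5, 1.77 and 3.55. Just inside it were rescue-only summits with neighbours at 252, 528, 1437, 4920 and 13277 bp, scoring 1.47, 5.93, 5.19, 2.16 and 3.97. Only 14 of the 205 had an untagged summit within 100000 bp.

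Summits confined to 1 list also made up a large share of the untagged lists. By the same 250 bp rule, 262 of 475 floxed summits (55.2%, 95% interval 50.6% to 59.7%) had no such partner in the deleted or rescue list. The share was 205 of 429 (47.8%, 43.0% to 52.6%) for rescue and 58 of 220 (26.4%, 20.7% to 32.7%) for deleted. These intervals take summits as independent draws within 1 library and are no test between genotypes. The lists differ in length and the depth of the Flag libraries is unknown, so the shares cannot be read as amounts of binding. The floxed-only summits also had tied low scores, with 85 of 262 (32.4%) at 3.57.

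At the head of each list the counts were small. Of the 20 highest scores, 3 were rescue-only in the rescue list, with Snx6 and 4930578N18Rik among their genes, and none was confined to its list in the floxed or deleted list. These are counts within single libraries and make no comparison of the genotypes. Among the 50 highest the counts were 7 for rescue, 1 for floxed and 3 for deleted, and among the 100 highest 14, 10 and 13.

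**Figure D2:**
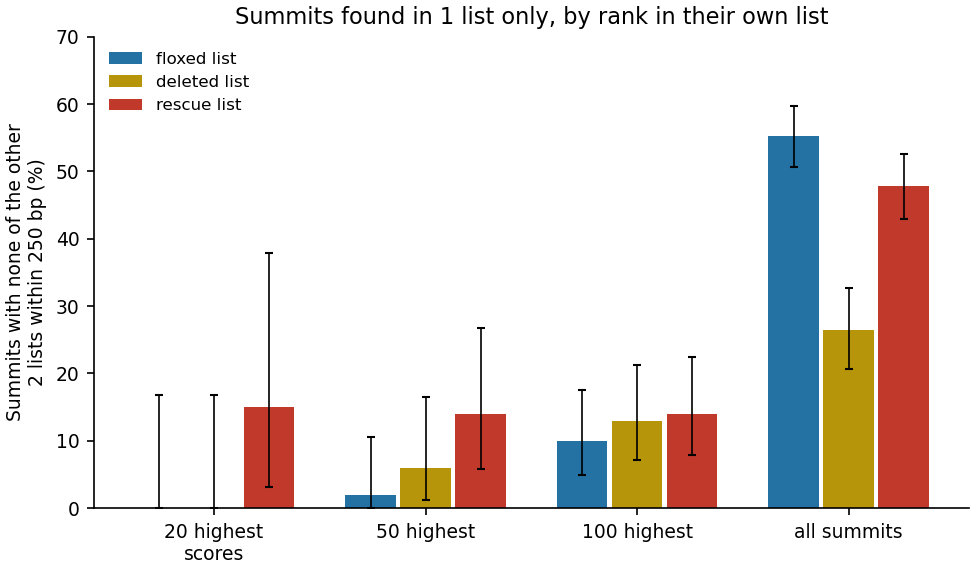
Percentage of summits with no summit of the other 2 lists within 250 bp (bars, exact 95% binomial intervals), among the 20, 50 and 100 highest scores and all summits of each list. Over whole lists the floxed bar is the highest at 55.2%, and in the 20 highest scores only the rescue bar is above 0, at 15%.

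The rescue-only summits were mainly intergenic. Of the 205, 63 (30.7%, 24.5% to 37.5%) lay inside a RefSeq gene span, 32 more within 10 kb of one, and 110 (53.7%) farther away. Gene spans cover 46.1% of the annotated length of the numbered chromosomes, X and Y. The other rescue summits gave nearly the same share inside genes, 68 of 224 (30.4%, 24.4% to 36.8%). For floxed-only and deleted-only summits it was 37.0% (31.2% to 43.2%) and 34.5% (22.5% to 48.1%). Protein-coding genes held 55 of the rescue-only summits (26.8%, 20.9% to 33.4%) and 44 of the others (19.6%, 14.7% to 25.5%), with overlapping intervals. Exons and introns were not analysed here.

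**Figure D3:**
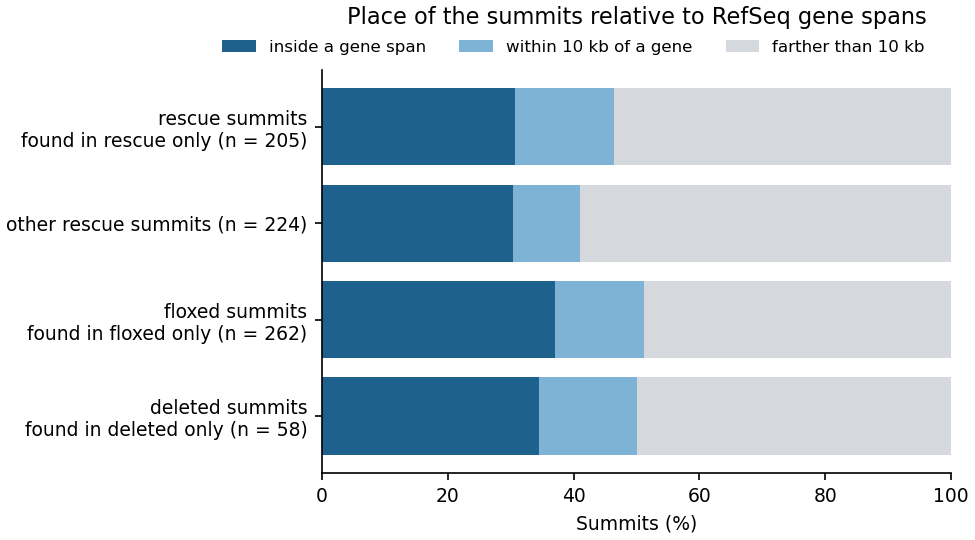
Share of summits (horizontal, percent) inside a RefSeq gene span, within 10 kb of a gene end, or farther, for rescue-only, other rescue, floxed-only and deleted-only summits. More than 10 kb from any gene lay 53.7% of rescue-only and 58.9% of other rescue summits.

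The genes that held rescue-only summits were long. A longer gene is more likely to hold any position, so this length was partly set by the choice of genes. The 61 genes, 52 of them protein-coding, had a median span of 125 kb, and 37 (60.7%) spanned at least 100 kb. For all 49997 genes of the table the values were 5.94 kb and 5.48%. Among protein-coding genes alone they were 186 kb and 67.3% for the holders, against 17.1 kb and 11.1% for all. Genes holding the other rescue summits were of the same kind, with a median of 149 kb and 57.6% at 100 kb or more. The longest were Cntnap2 and Lrp1b. Cntnap2, a contactin-associated protein gene of 2241 kb, held 3 summits (scores 3.55, 6.17 and 3.55, with gaps of 415092 and 617166 bp). Lrp1b (2058 kb), a lipoprotein receptor family gene, held 1. So did Il1rapl1 (1375 kb), an interleukin-1 receptor relative of synapses, Lrrc4c (1314 kb), Nkain2 (1208 kb) and Wwox (913 kb), an oxidoreductase gene.

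Few summits lay near a gene start. Among the 196 on chromosomes with listed starts, the median distance was 80632 bp, against 67593 bp for the other rescue summits. The list of starts is not complete, so these are upper limits. Within 5 kb of a start were 19 (9.69%) rescue-only and 12 (5.53%) other rescue summits, and within 1 kb 6 and 2. Floxed-only and deleted-only summits gave 11 (4.45%) and 6 (11.5%) within 5 kb, and 1 each within 1 kb. Their median distances were 74303 and 49074 bp. The 6 rescue-only summits within 1 kb were at Gm43305 and Gm39275 and at 4 coding genes. Hadhb encodes a subunit of the mitochondrial trifunctional protein of fatty acid oxidation, Tesk1 a kinase that acts on cofilin, Tmtc3 a protein of O-mannosylation and Osbpl6 an oxysterol-binding protein. Those 4 summits scored 2.27, 2.27, 1.38 and 2.27, among the lowest of the list.

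The place of the rescue-only summits was also read by score. Of 26 rescue-only summits scoring under 3, 4 were within 1 kb of a start and 11 inside coding genes (42.3%, 23.4% to 63.1%). Of 91 scoring 3 to 5, 1 was within 1 kb of a start and 20 were inside coding genes (22%, 14% to 31.9%). Scores of 5 to 10 gave 1 of 81 and 21, and the 7 scores of 10 or more gave 0 and 3 (42.9%, 9.90% to 81.6%). Within 5 kb of a start the 4 classes held 6, 6, 6 and 1 summits, which is 23.1%, 6.59%, 7.41% and 14.3% of each class. Both other rescue summits within 1 kb of a start scored 10 or more, and only 1 of the other rescue summits scored under 3. Floxed-only summits scoring under 3 gave 0 of 23 within 1 kb, 3 (13.0%) within 5 kb and 10 of 23 inside coding genes (43.5%). Only 2 deleted-only summits scored under 3, with 0 within 5 kb of a start.

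Spacing was wide. Neighbouring rescue-only summits of a chromosome were a median of 7760914 bp apart, and 3 of 182 gaps were under 100000 bp. A pair 68330 bp apart on chromosome 10 and one 90054 bp apart on X lay in no gene. The other rescue summits had 12 of 200 gaps under 100000 bp. Per 100 Mb of annotated span there were 7.51 rescue-only summits, from 2.56 on chromosome 13 to 11.7 on chromosome 12, with 9.96 on X and 4.40 on Y. Chromosome 13 had 3 rescue-only and 13 other rescue summits, while chromosome 12 had 14 and 8. Unplaced sequence held 2.

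Hhex and Cdkn2a, the genes of the series title, were not among the holders. The nearest rescue-only summit was 496785 bp from Cdkn2a and 480372 bp from Cdkn2b, the adjacent CDK inhibitor genes. The other rescue summits and those of the untagged lists were 5527799 bp or more from Cdkn2a. Hhex held 3 rescue summits, but each had an untagged summit within 250 bp and so is no member. The nearest rescue-only summit was 3728211 bp away. None of 232 genes in 12 lists (CDK inhibitors, PRC2, PRC1, HoxA, MLL fusion targets, haematopoietic transcription factors, myeloid maturation, stem and progenitor, p53, VEGF, ribosomal protein and housekeeping genes) held one or lay within 10 kb of one. Runx1, a master transcription factor of blood formation, was the closest at 19752 bp, followed by the ribosomal protein gene Rps13 at 98678 bp.

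The histone libraries were examined at the genes that hold these summits. Named genes had between 2444487 and 4203349 counts per H3K27me3 library and between 395133 and 645240 per H3K4me3 library. In H3K4me3, 10 of 14 myeloid marker genes had a mean of at least 20 counts, with summed levels of 1550, 1276 and 1488 CPM (counts scaled to the same library total) in floxed, deleted and rescue. Other lineages had 1 of 6 B-cell markers (Ebf1), 0 of 6 T-cell, 0 of 5 erythroid, 1 of 5 stromal (Pdgfrb) and 0 of 4 endothelial, with sums of 13.9 to 114 CPM.

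Median H3K27me3 at these genes was below that of long genes in each library. It was above that of all genes in floxed and deleted and close to it in rescue. The median level over the 55 counted genes was 0.269, 0.299 and 0.229 CPM per kb in floxed, deleted and rescue, against 0.204, 0.231 and 0.231 over all 26611 named genes. Over the 2305 genes counted across at least 100 kb it was 0.315, 0.367 and 0.316. In floxed, 33 of the 55 lay above the median of all genes and 2 above its 90th percentile. These were Tesk1 (8.25, 5.58 and 6.61 CPM per kb) and Lyzl4, a lysozyme-like gene (4.89, 4.64 and 3.46). Snx6 (0.0830), with one of the highest scores, lay in floxed below the median of all genes. 4930578N18Rik (1.03), with a similar score, lay above that median.

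A gene was called when its CPM ratio between 2 libraries was at least 1.5 either way and the exact 95% interval of counting error excluded 1, provided that the 3 libraries averaged 20 counts or more at the gene. Raw counts are compared after scaling, since the rescue H3K27me3 library was the deepest. In bulk chromatin, fewer cells with a mark and less of it per cell cannot be told apart. Of the 55 genes, 50 passed that mean for H3K27me3. In rescue against deleted, 3 were called higher (6.0%) where 7.07% of all 10604 genes were, and 4 lower (8.0%) where 11.3% were. In deleted against floxed, 0 were called higher against 4.72% of all genes, and 3 lower (6.0%) against 5.39%. The shares lower and the share higher in rescue were near or below those of all genes. Among the 2241 measured genes counted across at least 100 kb, 6.11% were called higher and 9.46% lower in rescue against deleted, and 2.99% and 2.10% in deleted against floxed. Genes holding the other rescue summits had 2 higher and 2 lower of 42 in rescue against deleted, and 0 and 1 in deleted against floxed.

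The median log2 ratio over the 50 genes was -0.07 for rescue against deleted, against -0.06 over all genes. For deleted against floxed it was 0.11 against 0.02, and it was also 0.11 over the long genes. With edgeR's TMM scaling the numbers of all genes called higher and lower in rescue against deleted became 935 and 991 in place of 750 and 1196, while those of the 50 genes stayed within 1.5 times.

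Map4k4 and St8sia1 were among the genes called higher in rescue than in deleted. Map4k4, a stress kinase gene, had 544, 474 and 1537 counts in floxed, deleted and rescue, a ratio of 1.96 (1.76 to 2.17). The rescue library was above both others. St8sia1, the ganglioside GD3 synthase gene, had 492, 413 and 1027 counts, a ratio of 1.5 (1.34 to 1.69) that is at the limit of the rule. Their summits scored 2.27 and 4.79.

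Gphn, Pir, 9030624G23Rik and 4930578N18Rik were lower in rescue. Gphn, which encodes the synaptic scaffold gephyrin, had 440, 485 and 340 counts, which is a ratio of 0.423 (0.367 to 0.487). Its level was 0.393, 0.418 and 0.177 CPM per kb. Pir, which encodes the nuclear protein pirin, had 75, 93 and 77 counts, a ratio of 0.499 (0.364 to 0.683). 9030624G23Rik had 29, 42 and 38, a ratio of 0.546 (0.342 to 0.867). 4930578N18Rik, with a summit score of 33.8, had 84, 99 and 109, a ratio of 0.664 (0.501 to 0.881), which TMM scaling moved to 0.699 and out of the call.

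Cpt1a and Cyyr1 were among those called lower in deleted than in floxed and were not called in rescue against deleted (ratios 1.53 and 1.22). Cpt1a, the carnitine palmitoyltransferase of mitochondrial fatty acid import, had 26, 13 and 33 counts, which is a ratio of 0.482 (0.227 to 0.972). Cyyr1 had 69, 47 and 95, a ratio of 0.657 (0.443 to 0.965). Both intervals reach close to 1. Snx6 had 10, 13 and 15 counts, too few for a call.

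Genes at the next highest scores were not called. Cntnap5b had 657, 766 and 975 H3K27me3 counts, a rescue to deleted ratio of 0.768. Lrrc4c had 95, 93 and 147 (ratio 0.953), Skint5 291, 267 and 470 (1.06), and Pik3c2a 26, 23 and 47 (1.23). Cntnap2, with its 3 summits, had 1570, 1974 and 3095, a rescue to deleted ratio of 0.946 (0.894 to 1.0) and a deleted to floxed ratio of 1.21 (1.13 to 1.30), neither of them called.

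**Figure D4:**
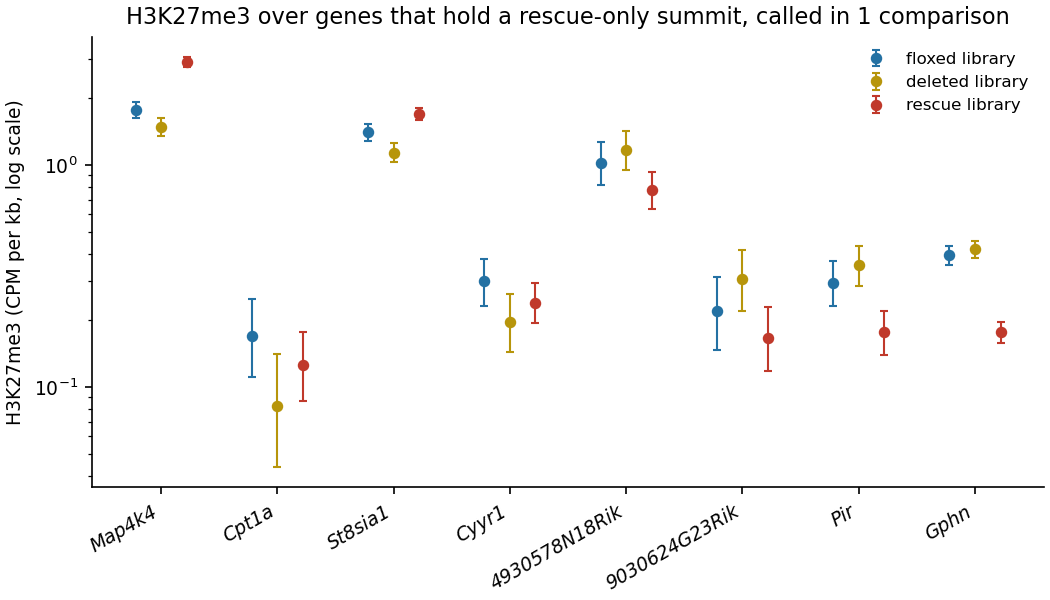
H3K27me3 level (vertical, CPM per kb, log scale) in the single floxed, deleted and rescue libraries over 8 genes that hold a rescue-only summit and were called in 1 comparison, with exact 95% Poisson intervals of counting error. For Map4k4 the rescue library is the highest of the 3, at 2.92 CPM per kb, and for Gphn it is the lowest, at 0.177.

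At 6 of the 55 genes the counted stretch covered under 80% of the RefSeq span, so the summit may lie outside what was counted. These were Abr, Rarb, Trat1, Lrrc4c, Stard13 and Fgf13, none of them called. Rarb, a retinoic acid receptor gene, had 174, 246 and 318 counts over 144 kb of a 651 kb span. Its rescue to deleted ratio was 0.780.

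H3K4me3 was low in the counted window of most of these genes. The authors counted it in 1 short window (301 bp for nearly every gene), whose position the files do not state. The mean reached 20 counts at 12 of the 55 (21.8%), against 25.1% of all named genes. No count fell in the window of 21 genes in floxed, 22 in deleted and 30 in rescue (38.2%, 40.0% and 54.5%). Over all named genes these shares were 35.7%, 41.0% and 43.1%, and over genes holding other rescue summits 45.7%, 39.1% and 50%. The rescue H3K4me3 library was the shallowest of the 3. Snx6 had 4, 0 and 0 counts and 4930578N18Rik 0, 2 and 1, too few for a call. Whether such low counts come from the gene, the depth or the place of the window was not tested.

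Of the 12 genes, 0 were called higher and 1 lower in rescue against deleted, where 4.49% and 5.97% of 6681 genes were. In deleted against floxed 0 were called higher and 1 lower, where 3.02% and 4.39% of all were. With 12 genes, 1 call is 8.33%. Among 677 measured long genes, 12.1% were lower in rescue against deleted and 2.36% in deleted against floxed. The medians were 0.00 and -0.06 on the log2 scale, against 0.03 and -0.03 over all genes. Osbpl6 had 125, 77 and 43 counts, a rescue to deleted ratio of 0.595 (0.400 to 0.875), while its H3K27me3 count went from 1019 and 1147 to 2644, a ratio of 1.39 (1.30 to 1.49) that was not called. Prpf6, a splicing factor gene, had 82, 29 and 40 counts, a deleted to floxed ratio of 0.542 (0.342 to 0.838).

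The remaining 10 genes were not called for H3K4me3 in either comparison. Map4k4 had 155, 98 and 74 counts, Gphn 150, 108 and 81, Hadhb 126, 59 and 67, and Tesk1 61, 29 and 36. For Map4k4 and Gphn the rescue to deleted ratios were 0.804 (0.586 to 1.10) and 0.799 (0.591 to 1.08), and both intervals hold 1, at genes whose H3K27me3 was called in opposite directions. Of 10 genes measured for both marks, the log2 ratios of rescue to deleted had opposite signs at 3 (30.0%), against 55.1% of 2317 such genes. For deleted to floxed the signs were opposite at 5 (50%), against 51.4%.

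**Figure D5:**
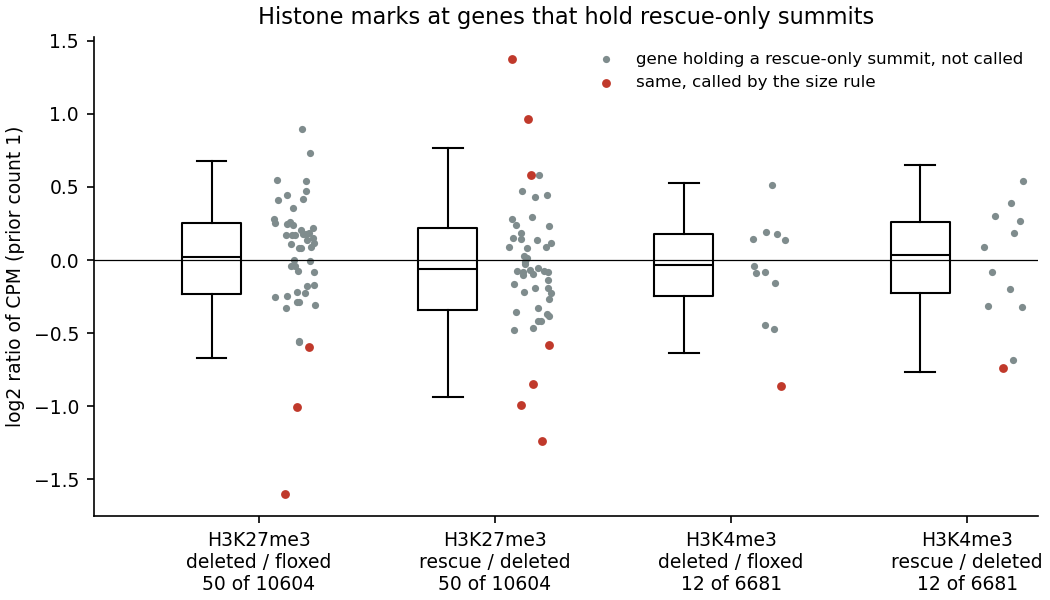
Log2 ratio of CPM (vertical, prior count of 1) for both marks and both comparisons, with a point for each measured gene that holds a rescue-only summit (red if called) beside a box of all measured genes (median, quartiles, whiskers at the 5th and 95th percentiles). The medians of the H3K27me3 points are 0.11 and -0.07, and called genes lie on both sides of 0 in rescue against deleted.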

How the data were processed

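Per the submitters' processing notes, featureCounts, MACS2 and the build mm10 were used; versions, settings and control libraries are not stated, and of the aligner nothing was given in the sources used here. Both kinds of file hold values as the authors deposited them. The authors deposited unnormalised counts per gene for the histone libraries and 1 summit list per Flag library with a −log10 score. H3K27me3 was counted over gene spans, which at 6 of the 55 holding genes covered under 80% of the RefSeq span. H3K4me3 was counted in windows of 301 bp for nearly every gene. Rows without a symbol (568, 0.608% to 0.739% of counts) were left out.

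Summits were compared by position, and placed on RefSeq genes (GRCm38.p6, the assembly of mm10; 25275 of 26611 named genes matched by identifier) and listed starts. Counts were scaled to CPM of named genes. Ratios have exact conditional binomial (Clopper-Pearson) intervals, computed with scipy 1.17.1, which cover counting error only; log2 ratios use a prior count of 1. edgeR 4.0.16 gave the TMM factors. Calls were made across all genes. No test between groups is possible with 1 library each.

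Members and lists were chosen with earlier results of these data known. Genes were named by rule: those at the 20 highest scores, with 2 or more members, called in either mark, in a fixed list, or named in the title, plus summits next to the limit; other genes (long genes, Rarb, Tesk1, Lyzl4, Nkain2, those near starts or within 10 kb, and Runx1) were named after their values were seen. One result that the rule names is not reported here.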

Additional observations from a re-analysis of the deposited data

How the results depend on the processing

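The number of rescue-only summits stayed within 1.5 times of 205 for limits from 100 bp to 5 kb, against either untagged list alone and without unplaced sequence. It was 7 with a score of at least 10 and 45 with a score above the list's median. The share inside genes was 57.1% for those 7 summits. The share inside or near a gene was 39.0% with a 5 kb and 70.2% with a 50 kb window. With a mean of at least 10 counts, 2 of 14 genes holding a summit had lower H3K4me3 in rescue against deleted. Over all genes 507 did. With at least 100 counts, 1 of 30 genes was lower in H3K27me3 in rescue against deleted, where 384 of all were. The other lower counts of either mark were 0, with 30 genes measured for H3K27me3 and 2 for H3K4me3. Over all genes they were 324 for H3K27me3 in deleted against floxed. For H3K4me3 they were 30 in rescue against deleted and 5 in deleted against floxed. Shares of all genes at the 10 and 100 count limits were not computed. At those limits the counts of holding genes therefore cannot be read as above or below those of all genes. With a 2-fold limit, 1 of 50 genes was higher and 2 lower in H3K27me3 in rescue against deleted. Over all 10604 genes 323 and 484 were. For H3K4me3 0 of 12 were lower in both comparisons, against 194 and 70 of all 6681. TMM scaling gave 139 higher and 403 lower of all genes for H3K4me3 in deleted against floxed, in place of 202 and 293, and ended the H3K27me3 call of 4930578N18Rik (0.699). The depth of the Flag libraries is unknown, which limits any reading of a missing summit as missing binding.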

Other observations

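Genes within 10 kb of a rescue-only summit, without holding one, added 8 genes measured for H3K27me3 to the 50. Coro6, an actin regulator gene next to the summit in Ssh2, had 129, 84 and 129 H3K27me3 counts in floxed, deleted and rescue. Scaled, these were 52.8, 33.1 and 30.7 CPM. Its deleted to floxed ratio was 0.628 (0.471 to 0.833). The rescue to deleted ratio was 0.926 (0.698 to 1.23), not called, so rescue stayed near the deleted level. Coro6 was the 1 further gene called, giving 4 lower of 58 (6.90%) in deleted against floxed. That is near the 5.39% of all 10604 genes. Cd72, a B-cell surface receptor gene beside Tesk1, was the densest, at 11.9, 10.2 and 11.1 CPM per kb, and Vipr1, a neuropeptide receptor gene beside Lyzl4, had 7.33, 6.35 and 6.22. Def8 had 8, 0 and 17 counts, under the mean needed for a call.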
